A study of Drosophila melanogaster with 12 samples.

Results

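Gut RNA of the Drosophila melanogaster control line FRT19A was compared between the adult stage and the pharate stage, in which the adult is fully formed but still inside the pupal case. The comparison rests on 3 of the 12 libraries of the series, chosen by their labels: 1 adult FRT19A library and 2 pharate FRT19A libraries. The genotype written for FRT19A in the design text is Y/FRT19A; +/+; +/+, a line with the FRT recombination site at 19A on the X chromosome and no Hinfp mutation. The adult sample is labelled intestine, and the pharate samples are labelled gut with Malpighian tubules, the excretory tubules that open into the gut. The design text gives males throughout, an age of 5 to 6 days for controls of either stage, culture at 25 °C and 50 guts pooled per sample, and it describes midguts with Malpighian tubules for all of them. The sex and the age of the adult sample stand only in that design text. No treatment is given. Beside them stand pharate libraries of W1118, the other control strain, pharate libraries of the Hinfp3 point mutant, and pharate and adult libraries of the Hinfp2 deletion mutant (Y/Hinfp2; +/+; +/+), with mutants given as 8 to 9 days old. Adults of that mutant are also given with UAS-Hinfp-HA or UAS-His1-HA driven by tub-Gal4, which carries a promoter active in all tissues.

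The pharate libraries are titled SE for replicate 1 and PE for replicate 2, read here as single-end and paired-end, and the labels do not spell these tags out. One field of the labels describes poly-A selection, and another describes removal of ribosomal RNA. The adult and pharate counts come from separate tables, made with different tool versions per the submitters' processing notes. Stage, table and sampling therefore cannot be told apart, and with 1 adult library no test between stages exists. All values below describe these libraries. A shift is called here only where the adult level lies at least 4-fold above, or at least 4-fold below, both pharate libraries, and where the higher stage reaches 10 CPM (counts per 1e+06 counts) over the genes found in both tables.

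In an insect gut the midgut epithelium is built of absorptive enterocytes, hormone-secreting enteroendocrine cells and progenitor cells, wrapped in visceral muscle. Enterocytes secrete serine proteases, amylases, maltases, lipases and lysozymes that digest food and swallowed microbes. The pharate animal does not feed, and its gut has been rebuilt during metamorphosis under the steroid hormone ecdysone. Male accessory glands are paired reproductive organs that lie close to the gut in the abdomen and secrete seminal fluid proteins.

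The adult library held 20271512 gene counts, and the pharate libraries held 28740669 in replicate 1 and 26869670 in replicate 2. Of the 15482 genes in both tables, 6708 reached 10 CPM, either in the adult or in both pharate libraries. One count corresponds to 0.0497 CPM in the adult library, against 0.0349 and 0.0375 CPM in the pharate libraries. The intervals given below for ratios are exact 95% intervals and cover counting error only.

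The adult library ranked its genes much like pharate replicate 2 and less like pharate replicate 1. Spearman's rho over the 6708 genes was 0.942 between the adult library and pharate replicate 2, 0.800 between the adult library and pharate replicate 1, and 0.874 between the 2 pharate libraries. These correlations are across genes, which are not independent replicates, and the libraries share tissue and strain. The median absolute log2 shift was 0.27 for the adult over pharate replicate 2 and 0.56 for the adult over pharate replicate 1, against a gap of 0.45 between the 2 pharate libraries. The adult library was thus nearer to one pharate library than the pharate libraries were to each other. It was closer to replicate 2 for 5032 genes (75.0%) and lay between the 2 pharate libraries for 1975 (29.4%).

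Some small noncoding RNAs set the 2 pharate libraries far apart. The signal recognition particle RNA 7SLRNA:CR32864 had 2456 counts in the adult library, against 18 and 708677 in the pharate libraries, far from both. The small nuclear RNA snRNA:7SKa, which restrains transcription elongation, had 27029 counts in the adult library, against 2 and 29649 in the pharate libraries. RNaseMRP:RNA, the RNA of a ribosomal RNA processing enzyme, had 60561 counts in the adult library, against 15 and 48395. For the last 2, the adult library and pharate replicate 2 were high and pharate replicate 1 was close to 0, so a shift that holds against both pharate libraries is the one read below.

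Of the 6708 genes, 69 (1.03%) were at least 4-fold higher in the adult library than in both pharate libraries, and 42 (0.626%) were at least 4-fold lower. At a 2-fold limit the counts were 170 (2.53%) higher and 103 (1.54%) lower. The median shift of all 6708 genes was 0.09 on the log2 scale. Such medians, here and for gene lists below, take each gene's mean shift over the 2 pharate libraries. They need not hold against both libraries. The called genes included 54 higher and 31 lower protein-coding genes. Among the 15 higher genes that do not code for protein were 7 ribosomal RNA pseudogenes, the lysozyme LysC, which the gene table lists as a pseudogene, and 3 small nucleolar RNAs. For 6 of the ribosomal RNA pseudogenes, the lowest of the 4 adult libraries was over 4 times the highest of the 8 pharate libraries, so this shift too goes with the table as fully as with the stage. Of these, 28SrRNA-Psi:CR45859 had 972 CPM in the adult library, against 0.0349 and 3.42 CPM in the pharate libraries.

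The same rule set between pharate libraries alone gives a measure of how many genes differ without a change of stage. Pharate replicate 2 of W1118, the other control strain, was at least 4-fold above both pharate FRT19A libraries for 79 of 6672 genes (1.18%) and at least 4-fold below for 18 (0.27%). Pharate replicate 1 of W1118 was above both for 213 of 7316 genes (2.91%) and below both for 32 (0.437%). The number of genes higher in adult than in pharate FRT19A gut thus lay below the number that set a single pharate W1118 library above the same 2 libraries. For lower genes it was the other way round, with 42 (0.626%) in the adult library against 18 and 32 in the W1118 libraries. The W1118 libraries share a table with the pharate FRT19A libraries, and the adult library does not. Of the 42 lower genes, 29 separate the 2 tables, as described below, and without such genes 13 remained. The larger number of lower genes thus rests on genes for which stage and table cannot be told apart.

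**Figure D1:**
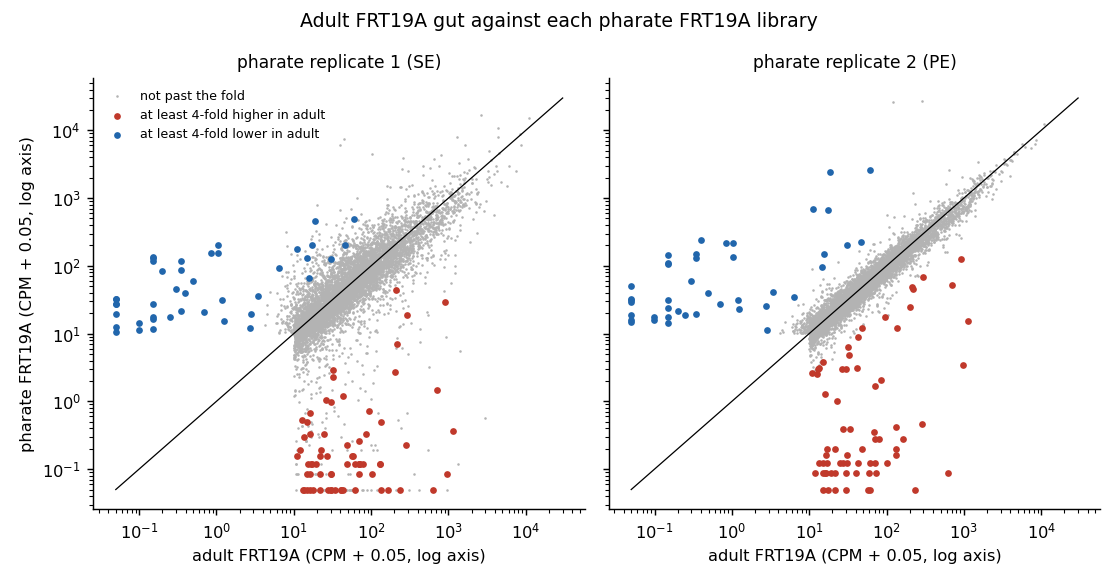
Each point is 1 of the 6708 genes at 10 CPM, with the adult FRT19A level on the horizontal axis and the level in pharate replicate 1 (left) or replicate 2 (right) on the vertical axis, both as CPM plus 0.05 on log axes; the line marks equal levels. The grey cloud is narrower against replicate 2, where rho is 0.942, than against replicate 1, where rho is 0.800. The 69 higher (red) and 42 lower (blue) genes are those past 4-fold against both libraries. Against replicate 1 alone, grey points also lie past 4-fold.

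Genes of the male accessory gland were prominent among the largest upward shifts of coding genes. Of the 18 listed accessory gland genes found in both tables, 14 reached 10 CPM, all through the adult library, and all 14 were at least 4-fold higher, against 1.03% of all genes tested. A gene near 0 in pharate gut can reach 10 CPM only by differing, so this count is a description. Summed over the 18 genes, the level was 990.3 CPM in the adult library, against 1.12 and 2.03 CPM in the pharate FRT19A libraries. The adult gut sample thus held seminal fluid transcripts that were close to 0 in both pharate FRT19A samples.

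Acp36DE, a seminal glycoprotein needed for sperm storage in the mated female, had 286 CPM in the adult library, against 0.175 and 0.413 CPM in the pharate libraries. Those levels rest on 5753 adult counts against 5 and 11 pharate counts, and the adult level was 986-fold that of the pooled pharate libraries (interval 607 to 1727). Mst57Db, 1 of 3 neighbouring genes for small secreted gland peptides, had 2652 counts in the adult library against 2 and 4. Its ratio to the pooled pharate level was 1213 (interval 556 to 3307). The adult level stood far above both pharate libraries, and because the pharate counts are few the ratios are known only within these intervals.

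Acp95EF, a gland peptide gene, had 2678 counts in the adult library against 0 and 3 in the pharate libraries, a ratio to the pooled pharate level of 2449 (interval 837 to 11882). All of its exon bases overlap another annotated gene, and whether the counting used strand is not given, so its reads may belong to either gene. SP, the sex peptide that changes female behaviour after mating, had 390 counts in the adult library against 2 and 1 in the pharate libraries, a ratio of 357 (interval 121 to 1737). Acp26Aa, known as ovulin for its effect on ovulation, had 615 adult counts against 0 and 2, a ratio of 844 (interval 233 to 6981). In all 3 the adult level stood far above both pharate libraries.

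The protease inhibitors of the seminal fluid followed. Spn38F and Spn28F, which belong to the serpin family of protease inhibitors, had 1467 and 1246 counts in the adult library. In the pharate libraries Spn38F had 2 and 1 counts and Spn28F had 2 and 0. Acp62F, a trypsin inhibitor, had 1183 adult counts against 3 and 1, and Acp76A, a serpin-like protein, had 812 against 0 and 1. Acp53C14a, a member of a small cluster of gland genes, had 1247 adult counts against 0 and 2, and Mst57Da had 864 against 0 and 2. The adult levels of these 6 genes lay between 40.3 and 72.8 CPM.

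Other genes of the same kind or place were high beside them. CG31872, which codes for a lipase-like protein, had 3312 counts in the adult library against 0 and 6 in the pharate libraries. CG43147 had 2072 adult counts against 1 and 2, and CG42481 had 1418 against 2 and 2. These last 2 genes lie beside SP on chromosome arm 3L, between 13298797 and 13301922 of the BDGP6 assembly. In all, 36 of the 54 higher coding genes had under 0.5 CPM in both pharate FRT19A libraries, and 23 had at most 3 counts in both.

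The called genes lay close together on the chromosomes in part. Within 20 kb of one another stood 21 of the 54 higher coding genes, in 8 groups. The matching share of all tested genes is not given here, so this count is a description. Among these were Acp53C14a, Acp53C14b and Acp53Ea on 2R (16747834 to 16750335), Mst57Da, Mst57Db and Mst57Dc on 3R (25829321 to 25831899), and the lipase-like genes CG31872, CG18284 and CG17097 on 2L (10639931 to 10650152). The protease genes Jon25Bi, Jon25Bii and Jon25Biii stood together on 2L (4949941 to 4955144).

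The accessory gland genes were not low in every pharate library, nor high in every adult library. Their summed level was 779 and 161 CPM in the 2 pharate W1118 libraries, and it ran from 2.38 to 526 CPM over the 4 pharate libraries of Hinfp mutants. In the adult set it was 990.3 CPM in FRT19A, 590.1 CPM in the Hinfp deletion mutant, 45.0 CPM in that mutant with Hinfp expressed again and 4.47 CPM in that mutant with His1 expressed. Of the 14 genes at 10 CPM, 6 were higher in pharate W1118 replicate 1 than in the adult FRT19A library, and 3 remained at least 4-fold above both W1118 libraries as well. The amount of gland tissue in each sample was not measured, and its part in the shifts was not tested.

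**Figure D2:**
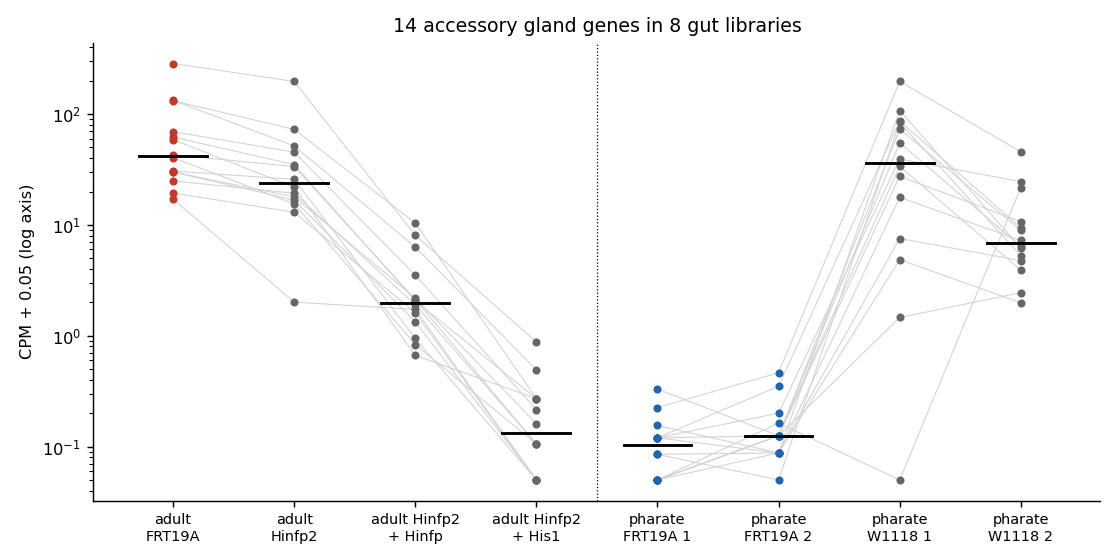
Points are the 14 accessory gland genes at 10 CPM in each of 8 libraries (CPM plus 0.05, log axis), thin lines join a gene across libraries of 1 stage, and the black bar is the median over genes. The adult FRT19A library (red) stands high and both pharate FRT19A libraries (blue) stand near 0, while summed levels of 779 and 161 CPM in the pharate W1118 libraries and 4.47 CPM in the adult His1-expressing mutant break the order by stage.

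When both W1118 libraries were set beside both FRT19A libraries as pharate controls, 18 genes of any kind remained at least 4-fold higher in the adult library, and 9 of the 54 coding genes did. These 9 were Acp95EF, Spn28F, SP, Acp98AB, Obp56d, CG14219, Akh, LysD and CG7381. Only 3 of the 54 were also over 4 times the highest of all 8 pharate libraries in the adult FRT19A library: Spn28F, Acp98AB and Akh, all 3 picked out after their values were seen. Akh, the adipokinetic hormone that mobilises energy stores and is made in the corpora cardiaca beside the anterior gut, had 43.3 CPM in the adult library. Its pharate FRT19A levels were 1.15 and 8.82 CPM, its pharate W1118 levels 2.75 and 4.98 CPM, and its level in the adult deletion mutant 0.728 CPM.

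Some digestive serine proteases were far higher in the adult library, and the sizes depended on the pharate library. Of the 31 listed Jonah and trypsin genes, 25 reached 10 CPM. Of these, 5 were at least 4-fold and 10 at least 2-fold higher in the adult library than in both pharate libraries, against 1.03% and 2.53% of all genes, and 1 was at least 2-fold lower. The adult library lay above both pharate libraries for 19 of the 25 and below both for 2. Their median shift was 0.86 on the log2 scale, against 0.09 for all genes. Summed over the 31 genes, the level was 10351 CPM in the adult library, against 5362 and 6591 CPM in the pharate libraries. That sum was 6748 and 10387 CPM in the pharate W1118 libraries. It ran from 8599 to 33965 CPM over the 4 adult libraries and from 5362 to 11920 CPM over the 8 pharate libraries. The ranges of the 2 stages thus overlap.

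Jon25Bi, a Jonah family serine protease of the midgut, had 85.4 CPM in the adult library, against 0.28 and 1.99 CPM in the pharate libraries. Jon25Bii, its neighbour, had 70.4 CPM in the adult library, against 0.21 and 1.65 CPM. The adult level was far above both pharate libraries, by 5.42 on the log2 scale for Jon25Bi and 5.41 for Jon25Bii against the closer one. epsilonTry, a trypsin gene, had 136 CPM in the adult library, against 0.454 and 12.2 CPM, a log2 shift of 3.48 over the closer pharate library. Jon99Ci had 201 CPM in the adult library, against 2.66 and 24.7 CPM, and Jon25Biii had 292 CPM against 18.6 and 69.2 CPM.

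These 5 genes were well counted in pharate W1118 replicate 2, which is titled PE like the closer FRT19A library. There Jon25Bi had 179 CPM, Jon25Bii 69.9 CPM, epsilonTry 268 CPM, Jon99Ci 72.6 CPM and Jon25Biii 222 CPM. The levels of Jon25Bi and epsilonTry there exceed those of the adult FRT19A library. None of the 5 was 4-fold above both W1118 libraries.

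The more abundant proteases differed among themselves. betaTry had 865 CPM in the adult library, against 42.0 and 287 CPM in the pharate libraries. Jon99Ciii had 607 CPM in the adult library, against 110.2 and 160 CPM, and Jon99Fii had 648 CPM, against 103 and 289 CPM. These 3 were past 2-fold against both pharate libraries, and the following 3 were not. alphaTry, the trypsin gene with the highest adult level of the list, had 2278 CPM in the adult library, against 848 and 1943 CPM in the pharate libraries. Jon65Aiii had 1373 CPM in the adult library against 646 and 1234 CPM, and yip7 had 559 CPM, between 1051 and 496 CPM. Try29F was the member that was lower, with 33.2 CPM in the adult library against 105 and 71.9 CPM. The near-identical copies deltaTry and gammaTry had 1 and 0 counts in the adult library, against 1301 and 1019 in pharate replicate 1 and 63 and 62 in pharate replicate 2. They did not reach 10 CPM in both pharate libraries, and reads of such copies can be split between genes by the counting.

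Other secreted peptidases were called as well. CG12374, a carboxypeptidase-like gene, had 708 CPM in the adult library, against 1.40 and 51.5 CPM in the pharate libraries. Its level was 1822 CPM in pharate W1118 replicate 2 and ran from 3.53 to 8388 CPM over the 4 adult libraries. CG18180, which codes for a serine protease-like protein, had 911 CPM in the adult library, against 29.7 and 125 CPM. CG7542, also serine protease-like, had 94.6 CPM in the adult library, against 0.66 and 17.8 CPM, and 94.7 CPM in pharate W1118 replicate 2. For CG12374 and CG7542, pharate W1118 replicate 2 thus stood at or above the adult FRT19A level.

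Carbohydrate-digesting genes were higher in the adult library by smaller steps. Of the 14 listed amylase and maltase genes, 13 reached 10 CPM, none passed 4-fold and 3 were at least 2-fold higher, against 2.53% of all genes. The adult library lay above both pharate libraries for 11 of the 13 and below both for none, against 2719 above and 2014 below of all 6708 genes. Mal-A1, a maltase, had 7450 CPM in the adult library, against 2513 and 5423 CPM in the pharate libraries. Per kilobase of exon it stood at rank 3 of all coding genes in the adult library, against ranks 32 and 6 in the pharate libraries. tobi, an alpha-glucosidase that responds to diet, had 3057 CPM in the adult library, against 903 and 2525 CPM. The median shift of the 13 genes was 1.78 over pharate replicate 1 and 0.46 over pharate replicate 2.

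The 3 members past 2-fold were Mal-A3, Mal-A4 and Amy-p. Mal-A3 had 595 CPM in the adult library, against 135 and 252 CPM in the pharate libraries, and Mal-A4 had 549 CPM, against 153 and 247 CPM. The amylase gene Amy-p had 1393 CPM in the adult library, against 406 and 657 CPM. In both W1118 libraries all 3 were also below the adult level, at 75.5 and 135 CPM for Mal-A3, 57.1 and 174 CPM for Mal-A4, and 226 and 660.2 CPM for Amy-p.

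Lipid and sterol handling showed 3 genes past 2-fold among the 10 of 16 listed genes that reached 10 CPM, all 3 higher, against 2.53% of all genes. Npc1b, the midgut sterol absorption protein, had 340 CPM in the adult library, against 42.5 and 114 CPM in the pharate libraries. Npc2e, of the secreted sterol-binding family, had 79.0 CPM in the adult library, against 0 and 20.9 CPM, and Npc2f had 44.6 CPM, against 0.42 and 19.3 CPM. The list's median shift was 1.76 over pharate replicate 1 and 0.92 over pharate replicate 2. mag, the lipase magro, had 257 CPM in the adult library, against 39.1 and 131 CPM, just under a 2-fold shift over the closer pharate library.

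Of the 7 lysozyme genes, 4 reached 10 CPM, and 2 were at least 4-fold higher, against 1.03% of all genes. LysD had 219 CPM in the adult library, against 6.92 and 46.0 CPM in the pharate libraries, and LysC had 529 counts, against 29 and 80. LysD was also above both W1118 libraries, at 2.42 and 33.4 CPM. LysB had 12.3 CPM in the adult library, against 3.01 and 4.47 CPM. The family shares similar sequences, so counts can be split among its members.

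**Figure D3:**
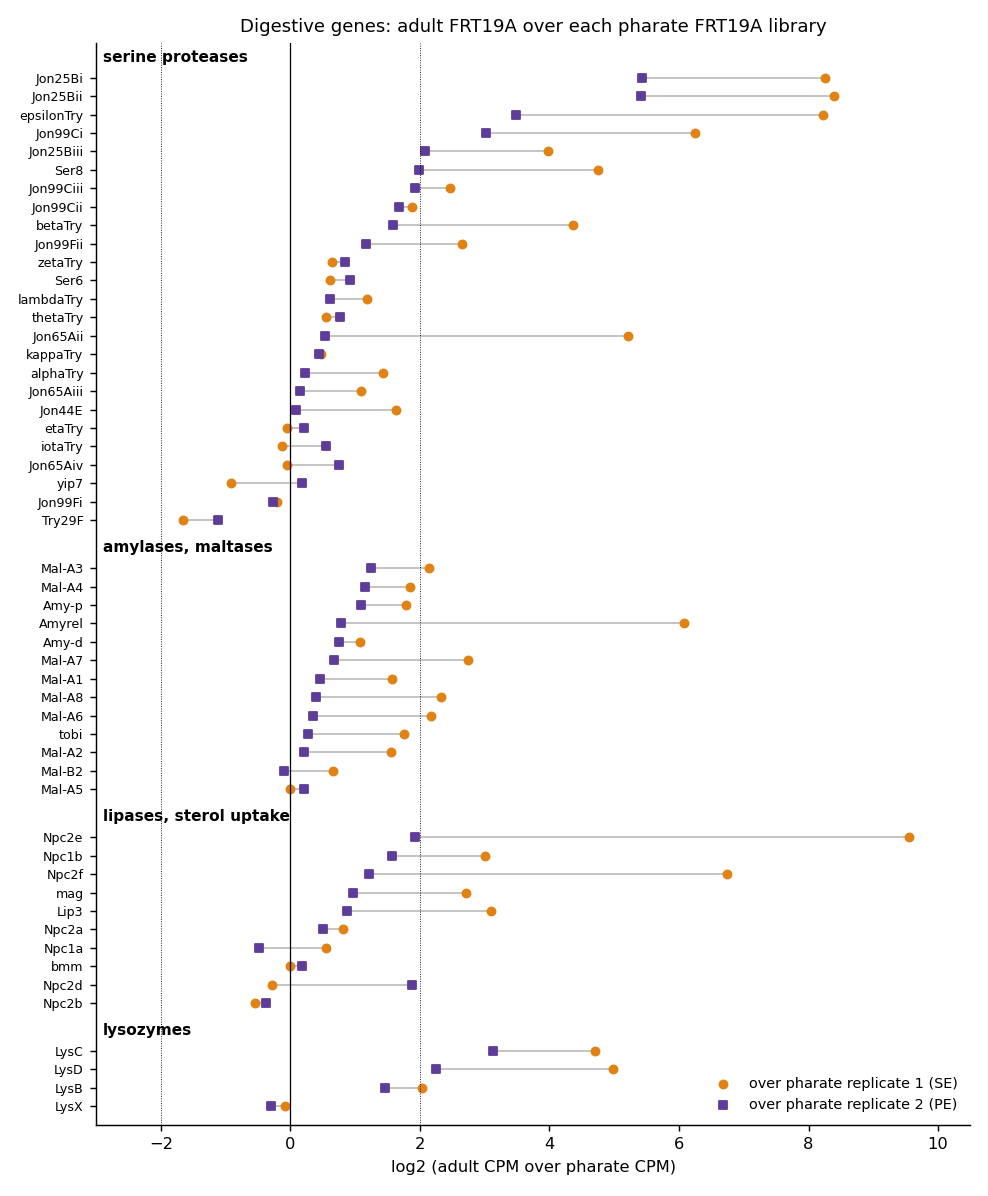
For each digestive gene at 10 CPM the circle gives log2 of adult CPM over pharate replicate 1 and the square log2 of adult CPM over pharate replicate 2; dotted lines mark a 4-fold shift either way. Circles reach further right than squares for most genes, and the median of the 25 proteases is 1.43 over replicate 1 and 0.77 over replicate 2.

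Mucins and peritrophic matrix proteins, which line the gut lumen, held 1 gene past 2-fold. Of 11 such genes in both tables, 6 reached 10 CPM, 1 was at least 2-fold lower (1.54% of all genes), 3 lay below both pharate libraries and 1 above both, against 2014 below and 2719 above of all 6708 genes. Muc68E had 126 CPM in the adult library, against 371 and 533 CPM in the pharate libraries. Muc68D had 1519 CPM in the adult library, between 1086 and 3415 CPM in the pharate libraries. Muc11A had 299 CPM, against 2531 and 463 CPM.

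Genes of protein synthesis and respiration were higher by a small and even step. Of 84 cytosolic ribosomal protein genes at 10 CPM, 68 lay above both pharate libraries and none below both, against 2719 above and 2014 below of all 6708 genes. Their median shift was 0.50 on the log2 scale, and it was alike over pharate replicate 1 (0.42) and replicate 2 (0.52). Mitochondrial ribosomal protein genes had 55 of 70 above both and none below both, with a median of 0.44. Nuclear genes of oxidative phosphorylation had 52 of 65 above both and 1 below both, with a median of 0.53. No gene of these 3 groups passed 4-fold or 2-fold.

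Summed over all 92 cytosolic ribosomal protein genes in both tables, the level was 72829 CPM in the adult library, against 52207 and 52719 CPM in the pharate libraries. Over the 4 adult libraries it ran from 53551 to 72829 CPM, and over the 8 pharate libraries from 37107 to 57030 CPM. The adult FRT19A library thus stood highest of the 12 for this sum. The ATP synthase subunit gene ATPsynbeta had 4204 CPM in the adult library, against 2507 and 3580 CPM, and the ribosomal protein gene RpL5 had 1755 CPM, against 1183 and 1488 CPM. Being shares of a total, these CPM levels depend on what else each library held.

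Among detoxification enzymes few genes passed 2-fold. Of 60 cytochrome P450 genes at 10 CPM, 1 was at least 2-fold higher and 1 at least 2-fold lower, close to the shares of all genes (2.53% higher and 1.54% lower), and none passed 4-fold. Of 27 glutathione transferase genes, 1 was at least 2-fold higher. Of 26 UDP-glycosyltransferase genes, 2 were at least 2-fold higher and Ugt50B3 passed 4-fold (1.03% of all genes), with 32.6 CPM in the adult library against 2.83 and 4.84 CPM in the pharate libraries. Ugt50B3 had 20.4 and 16.6 CPM in the W1118 libraries, so its shift did not hold at 4-fold against them. Above and below both pharate FRT19A libraries lay 35 and 10 cytochrome P450, 18 and 1 glutathione transferase, and 16 and 5 UDP-glycosyltransferase genes. Of all 6708 genes, 2719 lay above both and 2014 below both. The median shifts of the 3 families were 0.34, 0.66 and 0.32, against 0.09 for all genes. Over pharate replicate 2 alone they were 0.13, 0.19 and 0.04.

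Genes of the ecdysone response were lower or level in the adult library. Of 13 such genes at 10 CPM, 8 lay below both pharate libraries, 5 between them and none above both, against 2014 below and 2719 above of all 6708 genes. None passed 4-fold, and 2 were at least 2-fold lower, against 1.54% of all genes. The median shift was -0.69 on the log2 scale, against 0.09 for all genes. Eip74EF, an ecdysone-induced transcription factor, had 19.3 CPM in the adult library, against 328 and 44.4 CPM in the pharate libraries. ImpL2, an ecdysone-inducible secreted insulin-binding protein, had 41.8 CPM, against 210.5 and 87.7 CPM. These are the 2 genes past 2-fold, and in both the adult level lay below all 4 pharate control libraries.

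Blimp-1, an ecdysone-inducible repressor that times metamorphosis, had 161 CPM in the adult library, against 985 and 244 CPM in the pharate libraries. Eip93F, which directs adult fate at the end of metamorphosis, had 142 CPM in the adult library, against 181 and 183 CPM. The receptor gene EcR had 48.9 CPM in the adult library, between 27.2 and 74.4 CPM in the pharate libraries. Summed over the 24 genes of this list in both tables, the level was 894.0 CPM in the adult library, against 2381 and 1199.7 CPM in the pharate FRT19A libraries. That adult sum was the lowest of the 12 libraries, with 1477 CPM as the highest in the adult set and 1199.7 CPM as the lowest in the pharate set.

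Hormone peptides of the enteroendocrine cells were mostly below both pharate libraries. Of 9 genes at 10 CPM, 6 lay below both and none above both, against 2014 below and 2719 above of all 6708 genes. CCHa1 alone of the 9 was at least 2-fold lower (1.54% of all genes), with 17.1 CPM in the adult library against 62.6 and 53.3 CPM. The W1118 libraries had 21.2 and 6.91 CPM of CCHa1, on both sides of the adult level. AstC, allatostatin C, had 80.0 CPM in the adult library, against 227 and 107 CPM. Tk, tachykinin, had 110.3 CPM, against 147 and 141 CPM. In bulk RNA, fewer cells of a type and less RNA per cell cannot be told apart.

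Nutrient and insulin signalling genes had 4 of 12 members at least 2-fold lower, against 1.54% of all genes. Of the 12, 8 lay below both pharate libraries and 2 above both, against 2014 below and 2719 above of all 6708 genes. The sum over the 16 genes in both tables went the other way, at 4304 CPM in the adult library against 2788 and 4103 CPM. Thor, the translation inhibitor 4E-BP that insulin signalling holds low, had 108 CPM in the adult library, against 404 and 251 CPM in the pharate libraries. The insulin receptor gene InR had 24.2 CPM in the adult library, against 123 and 53.1 CPM, and sug, a sugar-responsive transcription factor, had 31.4 CPM, against 120.2 and 67.4 CPM. The fourth was ImpL2. Thor had 382 and 160.3 CPM in the W1118 libraries, above the adult level in both.

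**Figure D4:**
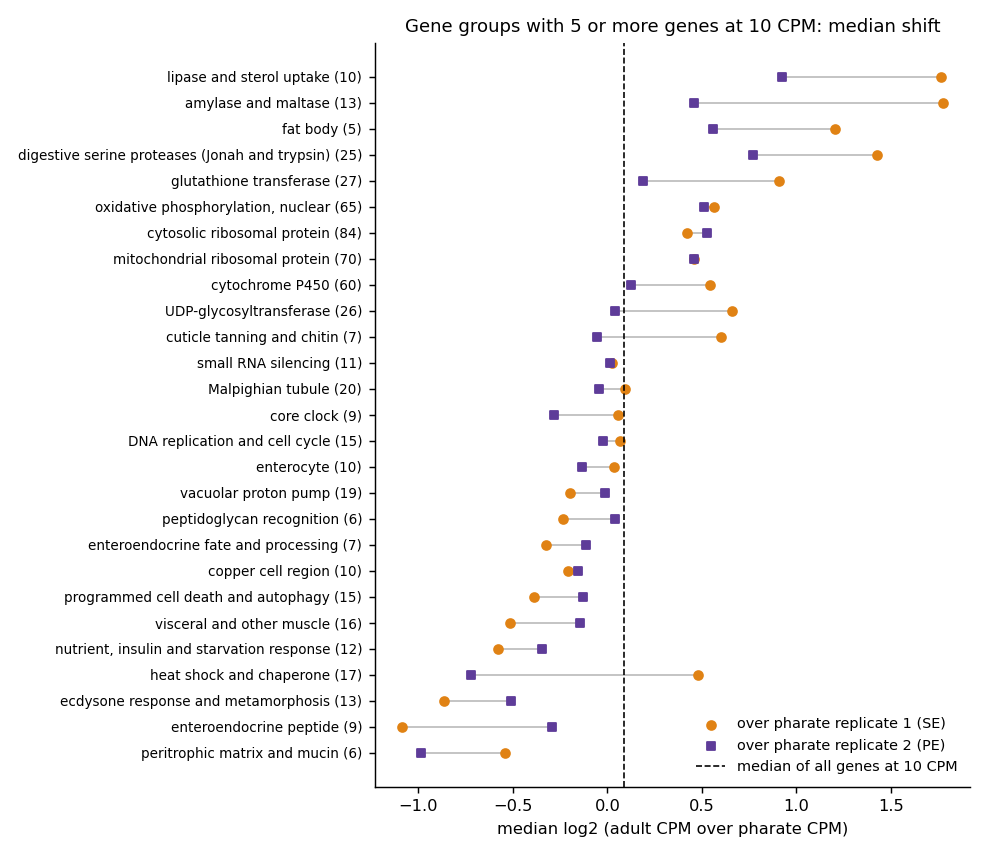
Each row is a gene group with at least 5 genes at 10 CPM (number in brackets). The accessory gland group, with 14 genes at 10 CPM and a median shift of 8.57, is left out. Circles give the median log2 of adult CPM over pharate replicate 1, and squares that over pharate replicate 2. The dashed line is the median of the mean shift of all 6708 genes, 0.09. Ribosomal and respiratory groups show both marks near 0.5, digestive groups lie to the right with widely spaced marks, and the heat shock group has its marks on opposite sides of 0.

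The shifts downward were led by genes close to 0 in every adult library. Of the 42 lower genes, 28 had under 1 CPM in the adult FRT19A library. In 29 of the 42 (69.0%), 20 of them coding, the highest of the 4 adult libraries was under 25% of the lowest of the 8 pharate libraries, whatever the genotype. Over all 6708 genes the same held for these 29 and no others. For these genes the shift goes with the table as fully as with the stage, and the 2 cannot be told apart.

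Gss1 and Gss2 are adjacent genes for glutathione synthetase on the X chromosome (17889547 to 17906025). Gss1 had 2 counts in the adult library, against 3767 and 2831 in the pharate libraries, and Gss2 had 2 counts, against 3889 and 2965. Each of the 4 adult libraries held at most 0.221 CPM of either gene, and each of the 8 pharate libraries at least 65.0 CPM. The ratio of adult to pooled pharate level was 0.000832 for Gss1 (interval 0.000101 to 0.003005) and 0.0008005 for Gss2 (interval 9.69e-05 to 0.00289).

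Prosalpha1 and Prosalpha1R, neighbouring genes for a proteasome alpha subunit and its copy, had 0 and 2 counts in the adult library. In the pharate libraries Prosalpha1 had 784 and 869 counts, and Prosalpha1R had 789 and 821. Taking 3 counts as the limit of a count of 0, Prosalpha1 was at least 184-fold lower in the adult library than in the closer pharate library. Sdic2, a copy of the sperm dynein intermediate chain gene, had 0 counts in the adult library, against 556 and 425, and was at least 107-fold lower by the same limit. Each of these genes has near-identical copies, and how reads that match several places were counted is not given in the sources used here.

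Neighbouring genes were low together elsewhere. Trpml, a cation channel of the lysosome, had 16 counts in the adult library, against 4433 and 5696 in the pharate libraries. CG42637 and CG42638, within 20 kb of one another and of Trpml on 3L (19714418 to 19793569), had 6 and 20 counts in the adult library, against 2482 and 3433 for CG42637 and 4364 and 5717 for CG42638. Tsp42Eb, a tetraspanin, had 6 adult counts against 3343 and 4005, and CG30160, within 20 kb of it on 2R, had 2 against 3399 and 3880. CG17715 had 5 adult counts against 1311 and 1617.

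Sesn, the stress-induced sestrin that restrains growth signalling, had 20 counts in the adult library, against 5745 and 3651 in the pharate libraries. Of its exon bases, 67.4% overlap another annotated gene. CG31683 had 3 adult counts against 2379 and 579, but its level over the adult set reached 22.2 CPM, above the lowest pharate level of 21.7 CPM. In all, 19 of the 31 lower coding genes lay within 20 kb of another, in 8 groups. Here too the matching share of all tested genes is not given, and whether neighbours share reads was not tested.

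**Figure D5:**
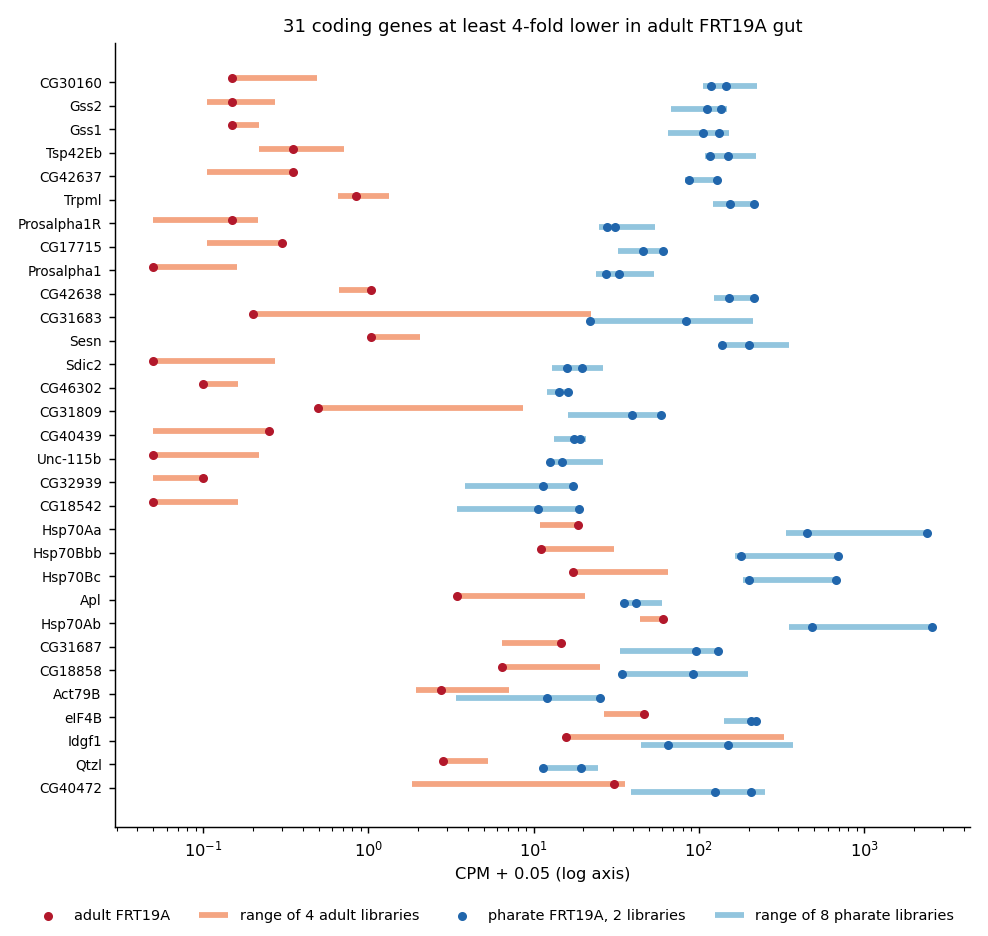
Rows are the 31 coding genes at least 4-fold lower in the adult FRT19A library, from the largest to the smallest shift (CPM plus 0.05, log axis); red and blue points are the adult and pharate FRT19A libraries, and bars span the 4 adult libraries (above) and the 8 pharate libraries (below). For 20 of them the highest adult library lies under 25% of the lowest pharate library, and for Idgf1, CG31683 and Act79B the bars overlap.

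The heat shock genes split by copy. Of 17 chaperone genes at 10 CPM, 4 were at least 4-fold lower in the adult library, against 0.626% of all genes, and all 4 were copies of Hsp70, the stress-inducible chaperone. Hsp70Aa had 18.6 CPM in the adult library, against 453 and 2408 CPM in the pharate libraries, a log2 shift of -4.60. Hsp70Ab had 60.9 CPM, against 485 and 2556 CPM, and Hsp70Bbb had 11.1 CPM, against 180 and 694 CPM. Hsp70Bc had 17.3 CPM, against 202 and 672 CPM. Hsp70Aa ran from 10.9 to 18.6 CPM over the 4 adult libraries, against 335 to 2408 CPM over the 4 pharate control libraries. Hsp70Bc ran from 17.3 to 64.7 CPM, against 188 to 672 CPM. In all 4 copies each adult library lay below each pharate control library. For these copies too, stage and table cannot be told apart.

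The other Hsp70 copies did not go as far. Hsp70Ba had 102 CPM in the adult library, against 216 and 559 CPM, and Hsp70Bb had 219.6 CPM, against 234 and 1179 CPM. The copies are near-identical, so their counts cannot be told apart with certainty. Hsp68, a separate inducible gene of the same family, had 623 CPM in the adult library, against 141 and 509 CPM, and lay above both. Hsp83, the Hsp90 chaperone, had 5656 CPM in the adult library, between 1492 and 6342 CPM. The median shift of the 17 genes was -0.53, made of 0.48 over pharate replicate 1 and -0.72 over pharate replicate 2, and so has no set direction.

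Among lower genes that were clearly counted in adult libraries were Act79B, Idgf1 and eIF4B. Act79B, an actin of adult tubular muscle, had 54 counts in the adult library, against 344 and 673 in the pharate libraries, a log2 shift of -2.16, and its level in the W1118 libraries was 8.35 and 3.36 CPM. Idgf1, an imaginal disc growth factor, had 15.7 CPM in the adult library, against 65.4 and 151 CPM, but 325 CPM in the adult deletion mutant. eIF4B, a translation initiation factor, had 46.3 CPM in the adult library, against 206 and 222 CPM, with 26.6 to 46.3 CPM over the adult set and 142 to 230.4 CPM over the pharate set.

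The label of the tissue was checked with marker genes. Malpighian tubule genes were level between the stages in median and sum, though not gene by gene. Of 20 genes at 10 CPM none passed 2-fold against both pharate libraries, and their median shift was 0.03. The adult library lay above both pharate libraries for 6 of the 20, below both for 7 and between them for 7. Their summed level was 4204 CPM in the adult library, against 4393 and 4227 CPM in the pharate libraries, with 4012 to 4594 CPM over the 4 adult libraries and 3416 to 4805 CPM over the 8 pharate libraries. Irk3, a potassium channel of the tubule, had 796 CPM in the adult library, against 541 and 720.0 CPM, and Uro, the tubule urate oxidase, had 1442 counts, between 292 and 2462. The adult library, whose own label names only the intestine, thus held tubule transcripts at about the summed level of the pharate libraries.

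Enterocyte markers summed to 4703 CPM in the adult library, against 4071 and 4984 CPM in the pharate libraries. mesh, of the septate junctions of enterocytes, had 1415 CPM in the adult library, against 1626 and 1547 CPM. Fat body genes summed to 505 CPM in the adult library, against 463 and 618 CPM. Most of that sum was Lsp1gamma, with 321 CPM in the adult library against 393 and 478 CPM. Of the 5 fat body genes at 10 CPM, 4 lay above both pharate libraries and 1 below both, with a median shift of 0.88. Visceral and other muscle genes summed to 13055 CPM in the adult library, against 16467 and 15213 CPM. Neuronal genes had 3 of 4 members at 10 CPM below both pharate libraries, against 2014 of all 6708 genes, with elav, a neuronal RNA-binding protein, at 12.3 CPM in the adult library against 31.3 and 32.0 CPM.

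Among the 3 FRT19A libraries, testis genes were high in pharate replicate 1. Of the 25 in both tables, 2 reached 10 CPM, and the sum over the 25 was 82.7 CPM in the adult library, against 591 and 109 CPM in the pharate libraries. In the other pharate groups too the sum was higher in replicate 1, titled SE, than in replicate 2, titled PE. It was 904 against 103 CPM in W1118, 797 against 453 CPM in the point mutant and 1106 against 411 CPM in the deletion mutant. Mst98Ca, a sperm tail protein gene, had 6 counts in the adult library, against 2087 and 45. The accessory gland genes were close to 0 in both pharate FRT19A libraries and low in pharate replicate 1 of the deletion mutant, at 2.38 CPM, where testis genes summed to 1106 CPM. Both sums were high in pharate W1118 replicate 1, with 904 CPM of testis genes and 779 CPM of gland genes, and in the adult deletion mutant, with 1114 and 590.1 CPM. The amount of testis tissue in each sample was not measured. Haemocyte genes summed to 35.4 CPM in the adult library, against 42.9 and 47.2 CPM, with Pxn as the only one at 10 CPM. None of the salivary glue genes reached 10 CPM.

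Among the other higher genes were Obp56d and Diedel3. Obp56d, an odorant-binding protein and 1 of 2 in its family at 10 CPM, had 12.7 CPM in the adult library, against 0.489 and 2.48 CPM in the pharate libraries, and stayed under 1 CPM in both W1118 libraries. Diedel3, of the family of the secreted immune regulator Diedel, had 550 counts in the adult library, against 0 and 9. Its level was 27.5 CPM in pharate W1118 replicate 2, as high as in the adult FRT19A library, and ran from 0.056 to 472 CPM over the 4 adult libraries.

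Antimicrobial and Turandot peptide genes were at low levels in both stages of FRT19A. Of 18 antimicrobial peptide genes, 2 reached 10 CPM, and Mtk had 19.1 CPM in the adult library, against 24.6 and 24.2 CPM in the pharate libraries. None of the 8 Turandot stress peptide genes reached 10 CPM. PGRP-SC2, an enzyme that degrades bacterial peptidoglycan, was the 1 of 6 members of its group at 10 CPM that passed 2-fold (2.53% of all genes were that much higher), with 93.6 CPM in the adult library against 8.91 and 24.2 CPM. All 4 JAK-STAT genes at 10 CPM lay below both pharate libraries, as did 2014 of all 6708 genes, with a median of -0.32. Stat92E, the transcription factor of that pathway, was the most abundant of them, with 355 CPM in the adult library, against 430.2 and 436 CPM.

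The targeted gene of the series, Hinfp, a zinc finger transcription factor, is intact in FRT19A, and its level was 12.1 CPM in the adult library, between 9.44 and 13.6 CPM in the pharate libraries. The pharate table holds replication-dependent histones, the linker histone among them, as rows pooled over many loci, which have no row of the same name in the adult table and are not compared here. The 4 other core histone genes compared, His2Av, His3.3A, His3.3B and His4r, all reached 10 CPM and none passed 2-fold. Core clock, DNA replication, small RNA silencing and copper cell genes had no member past 2-fold.

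At the top of the ranking per kilobase of exon, both stages held the same kinds of genes. Of the 100 highest coding genes, the adult library shared 78 with pharate replicate 2 and 61 with pharate replicate 1, and the 2 pharate libraries shared 66 with each other. The acyl-CoA-binding protein gene Acbp5 was first in the adult library, against ranks 15 and 3 in the pharate libraries. Pebp1, of the phosphatidylethanolamine-binding protein family, was at rank 5 in the adult library, against ranks 200 and 24, and its level was 2320.2 CPM, against 309 and 963 CPM. CG10911 was at rank 16 in the adult library, against ranks 1 and 8. Metallothioneins MtnA and MtnC, which bind metals, were among the first 17 in all 3 libraries.

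Transposable elements made up 1.73 counts per 100 gene counts in the adult library, against 0.848 and 2.20 in the pharate libraries. The adult value lies between the pharate values, and its ratio to their mean was 1.13. Of 153 families in both tables, 87 reached 10 CPM, and none was 4-fold higher or lower (0% each way). The adult level lay between the pharate levels for 65 of the 87, above both for 14 and below both for 8. Spearman's rho over families was 0.980 between the adult library and pharate replicate 2, and 0.817 between the adult library and pharate replicate 1.

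Among the 87 families at 10 CPM, the retrotransposon Dm88 had the largest upward shift, with 311 CPM in the adult library against 48.3 and 139 CPM in the pharate libraries. invader1 had 265 CPM, against 35.7 and 145 CPM, and HeT_A, the telomeric retrotransposon, had 74.5 CPM, against 35.8 and 55.3 CPM. Doc, a LINE-like element, had the largest downward shift of the 87, with 345 CPM in the adult library against 998 and 653 CPM. hobo, a DNA transposon, had 64.4 CPM, against 84.3 and 104 CPM. Families share sequence between copies, so a family is counted as a whole.

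The same rule was applied to the Hinfp deletion mutant, with 1 adult and 2 pharate libraries that share no sample with FRT19A but share the 2 tables. Of 7511 genes, 14 (0.186%) were at least 4-fold higher in the adult mutant and 38 (0.506%) at least 4-fold lower. The lower genes largely coincided: 32 were lower in both genotypes, which is 76.2% of the FRT19A genes and 84.2% of the mutant genes. Of the higher genes, 7 were shared, 10.1% of the FRT19A genes and 50.0% of the mutant genes, and the lipase-like CG31872 was the only coding gene among them.

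Of the 54 coding genes higher in adult FRT19A gut, 37 lay above both pharate libraries in the mutant as well and 5 below both. Of the 31 lower coding genes, 30 lay below both pharate libraries in the mutant. The share of all genes above or below both libraries in the mutant is not given here, so these counts are a description. In FRT19A, 2719 of all 6708 genes lay above both pharate libraries and 2014 below both. No gene was called in opposite directions in the 2 genotypes under the full rule, which includes the 10 CPM filter. Akh was past 4-fold in opposite directions, at 2.2966 in FRT19A and -2.6603 in the mutant on the log2 scale. It failed that filter for a lower call in the mutant. The lower genes shared by both genotypes include those that separate the 2 tables, so their recurrence does not tell stage from table.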

How the data were processed

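The authors deposited whole-number read counts per gene and per element family, 1 table for the pharate libraries and 1 for the adult libraries. Per the submitters' processing notes, pharate reads went through STAR 2.5.3a and featureCounts 1.5.2 with the builds BDGP6 and dm6. For adult reads the notes list Trimmomatic 0.39, Bowtie2 2.3.5, STAR 2.5.3a, featureCounts 1.6.2, DESeq2, edgeR 3.28.1 and dm6, without roles. How strand and multiple matches were treated is not given in the sources used here.

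Counts were scaled to CPM over the 15482 genes in both tables (99.1% to 99.6% of gene counts in each library). Of the 16524 pharate genes 1042 have no adult row, 31 of them at 10 CPM in both pharate FRT19A libraries, and 169 of 15651 adult rows have no pharate row. These were not compared. The adult table holds no row at 0 in all 4 adult libraries. Symbols and BDGP6 positions came from the Ensembl annotation for 15413 genes. Counts under 3 were set to 3 for shifts. The shift of a gene is log2 of adult over the closer pharate library, and 0 where the adult lies between.

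Groups follow titles and characteristics, and no per-sample column was left unassigned. Named are the 12 largest shifts each way among coding genes at 20 CPM, the 10 highest ranks per stage, the 3 largest shifts of each of 44 gene lists or else its 2 most abundant members, and others where said. Genes outside this rule were chosen after their values were seen, and the members and lists were chosen with earlier results of these data known. Lists not given above were the cuticle, tanning, cell death, vacuolar proton pump, receptor, progenitor and enteroendocrine fate genes, none with a member past 4-fold, and mitochondrially encoded genes, which have no row in both tables. Python 3.11.15, pandas 2.3.3 and scipy 1.17.1 were used, with edgeR 4.0.16 (TMM) and DESeq2 1.42.0 (size factors) in R 4.3.3 for other scalings. The rule was tested on simulated data. Alternatives changed scaling, total, filter, fold, floor and pharate libraries.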

Additional observations from a re-analysis of the deposited data

Results flagged for a closer look

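Of the called genes, 6 stood out because the FRT19A adult was above both pharate libraries while the adult of the Hinfp deletion mutant was below both of its own; the difference between genotypes was not tested. The shift of Jon25Bi was 5.42 on the log2 scale in FRT19A and -0.0596 in the mutant. That of Jon25Bii was 5.41 in FRT19A and -0.4884 in the mutant. That of LysC, the lysozyme listed as a pseudogene, was 3.13 in FRT19A and -0.6759 in the mutant. The serine protease-like genes CG18179 and CG18180 had shifts of 3.69 and 2.87 in FRT19A, against -0.9287 and -0.4951 in the mutant. The hormone gene Akh had a shift of 2.2966 in FRT19A and -2.6603 in the mutant. Jon25Bi varied widely within a stage, with 7.28 to 671 CPM over the 4 adult libraries and 0.28 to 179 CPM over the 8 pharate libraries.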

How the results depend on the processing

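The counts of 69 higher and 42 lower genes stayed within 1.5-fold with TMM scaling (67 and 43), DESeq2 size factors (70 and 42), a total without noncoding and histone genes (68 and 44), a fold of 8 (55 and 34) and a pseudocount of 1 CPM (63 and 38). They became 281 and 180 with no filter on low values, 29 and 16 at 50 CPM, and 170 and 103 at 2-fold. With 1 pharate library left out they ranged from 72 to 377 higher and from 67 to 572 lower, the higher ends being those without replicate 2. With the 4 pharate controls 18 were higher and 38 lower. In alternatives chosen after seeing the data, 24 were higher without accessory gland genes and genes with a 50-fold spread among adult libraries, and 13 lower without rows that separate the tables. The element ratio of 1.13 ranged from 0.7846 to 2.04 with 1 pharate library left out, and was 1.09 with a total without noncoding genes. The heat shock median of -0.53 ranged from -0.72 to 0.48 with 1 pharate library left out, reversing without replicate 2; the cause was not tested. Scalings moved the median of all genes between 0.06 and 0.10. No paired analysis was possible because the adult group has 1 library and no test was made. There is 1 adult library, stage and table cannot be told apart, and genes under 10 CPM were not called.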
